A study of Mus musculus and Ictidomys tridecemlineatus with 36 samples.

Results

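Otx2 peaks of the P5 retina of the 13-lined ground squirrel (13LGS) are all 27993 intervals of the pooled 13LGS Otx2 list, out of 532904 peaks in the 10 lists of the series. No threshold was added to the one that made the list, so every peak called by the authors is a member. The series profiled P5 13LGS and P2 mouse retina by CUT&RUN, in which an antibody-tethered nuclease releases the DNA around a protein or histone mark in isolated nuclei. The 13LGS Otx2 list pools 6 libraries, 4 made with an R&D Systems antibody from 2 biological replicates and 2 made with an Atlas antibody from 1 of those replicates, and was called against 3 IgG libraries. Each 13LGS replicate pooled retinas of 2 animals, and the 13LGS lists for H3K4me3 (18020 peaks), H3K27ac (93999 peaks) and H3K4me1 (141578 peaks) come from 1 library each. The 13LGS Neurod1 list (4658 peaks) pools 4 libraries and the mouse Otx2 list (29115 peaks) pools 8, with 3 animals in each mouse pool.

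Otx2 is a homeodomain transcription factor that photoreceptor precursors and bipolar cells need, and it acts together with Crx and Neurod1 at photoreceptor genes. H3K4me3 marks the start sites of active or poised genes, H3K4me1 marks enhancers and the flanks of promoters, and H3K27ac marks the active members of both. Retinal enhancers bound by photoreceptor factors often carry H3K27ac and H3K4me1 without H3K4me3.

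Each peak has a single fold enrichment, the ratio of pooled signal to IgG at its summit, and a single −log10 q. There was therefore no spread between replicates, no test between samples was possible, and read depth is unknown. Intervals printed below are 95% intervals (Wilson for a share, Newcombe for a difference of shares) and cover counting error only. The antibodies and the biological replicates cannot be told apart within the pooled list.

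Most 13LGS Otx2 peaks were weak to moderate. The median fold was 3.15, with quartiles at 2.62 and 4.0, and the range ran from 1.15 to 25.7. The upper tail was thin: 229 peaks, 0.818% of the list, reached a fold of 10, against 754 peaks (2.59%) in the mouse list. Peaks were 426 bp wide at the median (quartiles 256 and 679 bp) and covered 14.6 Mb together, and 127 peaks were at least 2000 bp wide. Summits lay near the middle of the peak, at a median of 49.0% of the width. Stronger peaks were wider: from the lowest to the highest quintile by fold the median width went through 288, 298, 378, 520 and 777 bp, and Spearman's rho between fold and width over the 27993 peaks, which share their libraries, was 0.524.

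Most Otx2 peaks overlapped at least 1 histone peak. H3K4me1 was shared by 20121 Otx2 peaks (71.9%, interval 71.3 to 72.4%), H3K27ac by 15402 (55.0%, 54.4 to 55.6%) and H3K4me3 by 12713 (45.4%, 44.8 to 46.0%). The 3 lists together left out 1867 peaks (6.67%, 6.38 to 6.97%). This share was 24.8% with the same number of peaks taken from each histone list by q, and 28.5% when at least 250 bp had to be shared. For scale, the H3K4me3 list covered 0.970% of the span of the 19 largest sequences, the H3K27ac list 3.05% and the H3K4me1 list 7.64%. The Otx2 summit itself lay inside the overlapping histone peak for 97.1% of the peaks with H3K4me3, 85% of those with H3K27ac and 86.7% of those with H3K4me1. The median distance from an Otx2 summit to the nearest histone summit was 192 bp for H3K4me3, 226 bp for H3K27ac and 355 bp for H3K4me1 among overlapping peaks.

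Marks changed with Otx2 fold. H3K27ac was shared by 45.6% of the peaks in the lowest quintile by fold and by 67.1% of those in the highest, a difference of 21.6 percentage points (19.8 to 23.4). H3K4me3 was shared by 43.3% and 57.5%, a difference of 14.2 points (12.4 to 16.0), with its lowest share, 38.2%, in the second quintile. With every list limited to a −log10 q of 5 or more, the H3K4me3 difference between the end quintiles was −1.30 points (−3.69 to 1.09). The H3K4me3 shares there were 58.8, 44.8, 46.6, 52.0 and 57.5% from the lowest to the highest quintile. Median Otx2 width in that lowest quintile was 500.5 bp. In the whole list, H3K4me1 was shared by 65.1% and 74.1%, a difference of 9.03 points (7.33 to 10.7). Its shares were 74.5, 74.4 and 74.1% in the last 3 quintiles. Peaks without any mark fell from 11.6% of the lowest quintile to 1.88% of the highest. With the Otx2 summit required inside the mark, the H3K4me1 shares were highest in the middle, at 57.9, 64.9, 66.4, 63.8 and 58.6%, and the difference between the end quintiles was 0.725 points (−1.10 to 2.55).

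**Figure D1:**
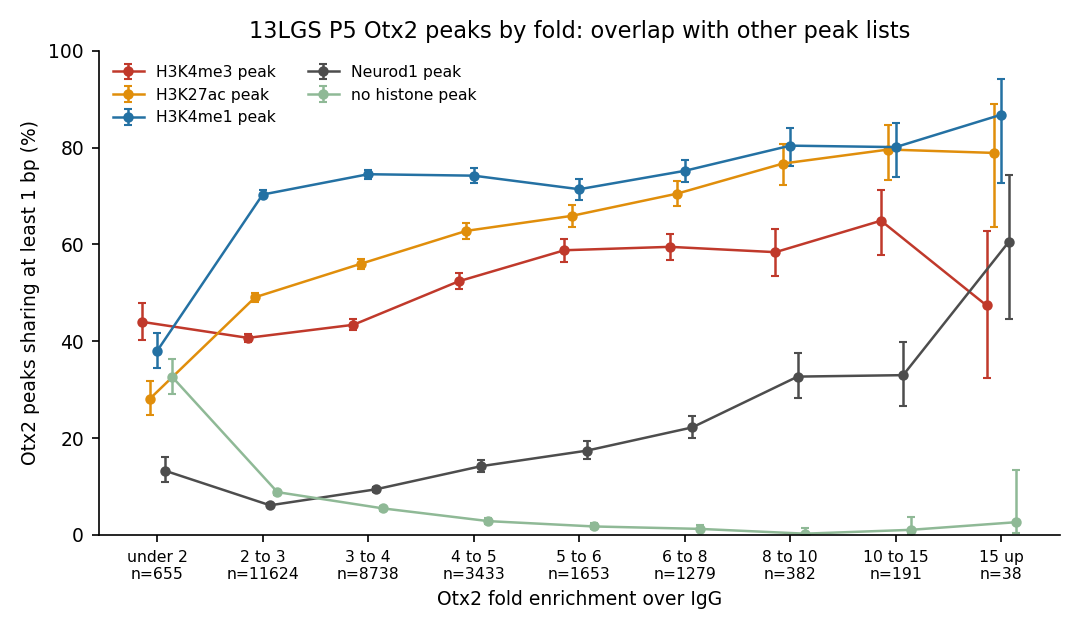
Share of 13LGS Otx2 peaks (%) that share at least 1 bp with a 13LGS H3K4me3, H3K27ac, H3K4me1 or Neurod1 peak, or with no histone peak, by bin of Otx2 fold over IgG; points are shares, bars 95% Wilson intervals, and n is the number of Otx2 peaks. H3K27ac climbs from 28.1% under a fold of 2 to 79.6% at 10 to 15, and Neurod1 reaches 60.5% in the 38 peaks of 15 or more.

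Finer bins showed the ends of the scale. Under a fold of 2, 32.7% of 655 peaks had no histone mark, against 8.84% of the 11624 peaks with a fold of 2 to 3. Between folds of 10 and 15, 64.9% of 191 peaks had H3K4me3 and 79.6% had H3K27ac. The 38 peaks with a fold of at least 15 had H3K4me3 at 47.4% (32.5 to 62.7%), H3K27ac at 78.9% (63.7 to 88.9%) and H3K4me1 at 86.8% (72.7 to 94.2%). Their H3K4me3 interval overlaps that of the bin below.

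Width moved with fold, and the direction for H3K4me3 depended on it. Among the 9237 peaks of 166 to 299 bp, H3K4me3 was shared by 35.2% of the lowest quintile by fold within that width and 26.4% of the highest, a difference of −8.81 points (−11.8 to −5.83). Among the 4902 peaks of 800 to 3431 bp, the shares were 78.1% and 66.8%, a difference of −11.2 points (−15.1 to −7.30). The bands of 300 to 499 bp and 500 to 799 bp differed by −6.15 and −10.3 points. H3K4me3 was less frequent in the strongest than in the weakest quintile of each of these 4 width bands, and more frequent in the strongest when all widths were pooled.

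H3K27ac and H3K4me1 kept the direction of the difference between the end quintiles within every width band. H3K27ac was higher in the strongest quintile by 5.60, 8.64, 11.1 and 10.3 points from the narrowest to the widest band, and H3K4me1 by 13.0, 9.70, 7.42 and 6.19 points. None of these 8 intervals reached 0. The rise was not always steady: in the band of 300 to 499 bp, H3K4me1 was 64.9, 73.5, 76.9, 77.4 and 74.6% through the quintiles. Width was not held fixed, since its median still went from 964 bp in the lowest to 1108 bp in the highest quintile of the widest band. The limits of the bands were chosen after the shares by fold had been seen.

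**Figure D2:**
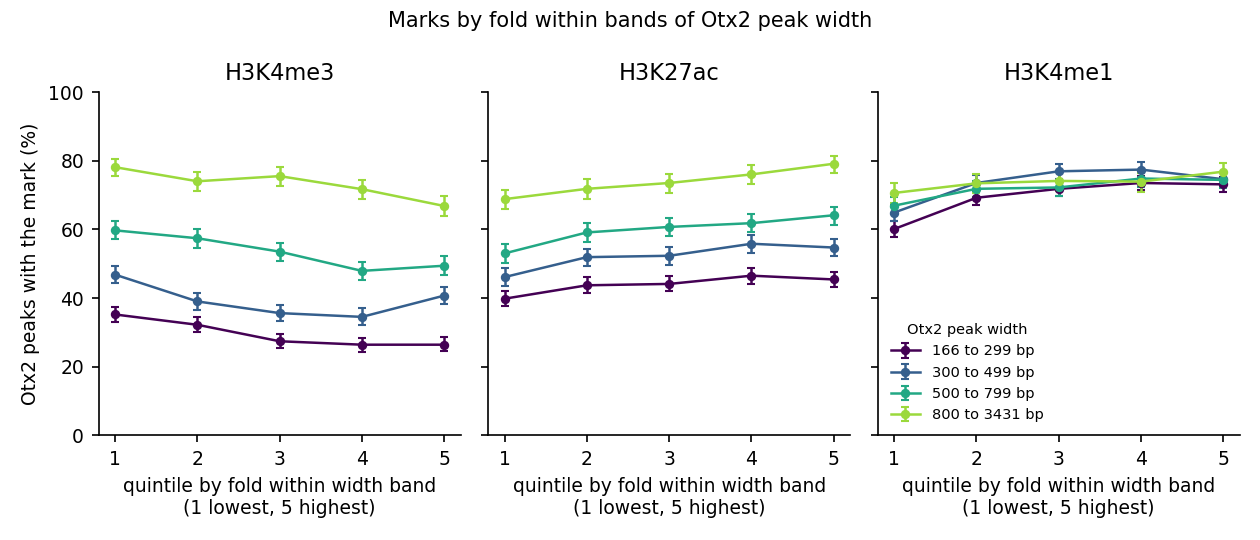
Share of 13LGS Otx2 peaks (%) with H3K4me3, H3K27ac or H3K4me1 (panels) by quintile of Otx2 fold formed within 4 bands of Otx2 peak width (colours); bars are 95% Wilson intervals. H3K4me3 is lower in the highest than in the lowest quintile of each band (26.4 against 35.2% in the narrowest), while H3K27ac and H3K4me1 are higher.

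The 3 marks sorted the Otx2 peaks into 8 combinations. The most common was H3K27ac with H3K4me1 and no H3K4me3, the combination of active distal enhancers, with 8916 peaks (31.9% of the list). H3K4me1 alone followed with 4307 peaks (15.4%), all 3 marks together with 4123 (14.7%) and H3K4me3 alone with 3642 (13.0%), while H3K27ac alone was rare with 190 peaks (0.679%). Otx2 fold was highest where all 3 marks met (median 3.63, quartiles 2.90 and 4.84) and lowest where none was found (2.72, quartiles 2.35 and 3.20). These combinations also differed in width, from a median of 239 bp without a mark to 717 bp with all 3. Within H3K4me3-marked peaks, H3K27ac went from 36.3% in the lowest quintile by fold to 63.2% in the highest. Within peaks lacking H3K4me3 it went from 52.7% to 72.5%. Median Otx2 width rose over the same quintiles, from 340 to 882 bp with H3K4me3 and from 261 to 666 bp without it. The part of width in these 2 rises was not tested.

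Neurod1, a bHLH factor of photoreceptor precursors, shared 2889 of the Otx2 peaks (10.3%, interval 9.97 to 10.7%), and 2909 of the 4658 Neurod1 peaks (62.5%, 61.1 to 63.8%) met an Otx2 peak. Sharing was most frequent in the H3K27ac with H3K4me1 combination, where 18.8% (18.0 to 19.6%) of the Otx2 peaks had Neurod1, against 2.86% (2.36 to 3.45%) of those with H3K4me3 alone. Among peaks lacking H3K4me3, Neurod1 sharing was 10.3, 8.44, 10.6, 15.8 and 30.5% from the lowest to the highest quintile by fold. Among H3K4me3-marked peaks it was 1.98% in the lowest and 11.5% in the highest. Median Otx2 width also rose between these quintiles, from 261 to 666 bp without H3K4me3 and from 340 to 882 bp with it. Neurod1 sharing within width bands was not tested. Both lists were called against the same 3 IgG libraries. At the 2889 shared Otx2 peaks the folds of both factors correlated weakly, with a Spearman's rho of 0.244.

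**Figure D3:**
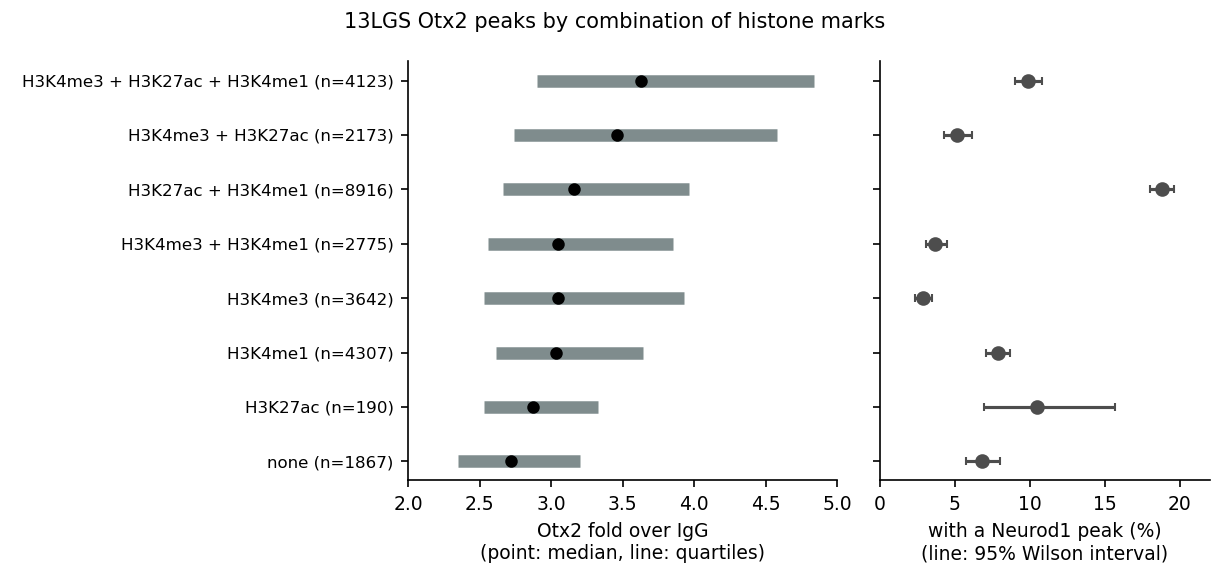
Left, Otx2 fold over IgG (point, median; line, quartiles) for 13LGS Otx2 peaks of each combination of histone marks, with the number of peaks; right, share of those peaks (%) with a Neurod1 peak and its 95% Wilson interval. Fold is highest with all 3 marks (median 3.63), and Neurod1 sharing is highest with H3K27ac + H3K4me1 (18.8%).

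Of the 15 strongest Otx2 peaks, 10 lacked H3K4me3. H3K4me1 overlapped 15 of the 15, H3K27ac 14 and H3K4me3 5, and 9 had a Neurod1 peak. Over the whole list the shares were 71.9, 55.0, 45.4 and 10.3% in that order. Among the 229 peaks with a fold of at least 10, 62.0% had H3K4me3. The strongest, Itri14:10537652-10538462 in the files' 13LGS assembly, had a fold of 25.7 and lay under an H3K4me3 peak of 39.8-fold. It overlapped a start-site element listed for *Ccni*, which encodes cyclin I, and was also listed for a CCNI-like gene. A neighbour 56 kb away on the same sequence, Itri14:10479788-10481760, had a fold of 22.4 and an H3K4me3 fold of 47.4. The peak Itri4:125774953-125776244 had a fold of 22.4 with H3K27ac at 3.86-fold and H3K4me1 at 17.0-fold but no H3K4me3. Itri2:104123746-104124813, with a fold of 22.2, had H3K4me1 alone, at 2.49-fold.

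Several of these peaks were strong for Neurod1 too. Itri7:35890442-35891319 had an Otx2 fold of 22 and a Neurod1 fold of 19.5, with H3K27ac at 9.07-fold. Itri14:6466339-6467148 had folds of 20.3 for Otx2 and 20.2 for Neurod1. Itri4:102309015-102310415 had folds of 22.4 and 17.4, and Itri5:49197163-49197824 had folds of 21.6 and 15.1. Among the other 11 of the 15, 5 had a Neurod1 peak, with folds from 4.35 to 12.4.

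The strongest peak of each remaining combination was weaker. With H3K4me3 and H3K27ac only, Itri6:57389194-57390383 reached 18.1 under an H3K4me3 fold of 60.8. With H3K4me3 and H3K4me1 only, Itri12:10015326-10016705 reached 17.8, and with H3K4me3 alone Itri12:20000026-20001177 reached 15.4. The strongest peak without any mark, Itri3:25137-25476, had a fold of 15 and lay at the very start of its sequence, and the strongest with H3K27ac alone, Itri11:43737624-43738537, had a fold of 8.42. The 5 widest peaks measured 3078 to 3431 bp with folds from 5.55 to 15.6, and each carried all 3 marks. The widest, Itri3:131677385-131680815, had a fold of 6.76 with H3K27ac at 15-fold.

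Genes could be attached to peaks only through the study's supplementary lists of accessible 13LGS elements, which give each element a gene and a class. *Thrb* encodes the thyroid hormone receptor beta, which cones need for their opsin pattern, and 6 Otx2 peaks lay on its elements. The strongest, Itri2:182651153-182652337 in the gene body, had a fold of 9.0, a Neurod1 fold of 10.8 and an H3K4me1 fold of 11.2. The intergenic *Thrb* peaks had folds of 4.42, 5.66, 2.70 and 3.37, and the other gene body peak had a fold of 2.55; none of these 5 had Neurod1. *Rxrg* encodes a retinoid X receptor of cones, and 8 Otx2 peaks lay on its elements. Its start-site peak, Itri9:101943014-101943739, had a fold of 3.07 with all 3 marks and Neurod1 at 2.41-fold, while its strongest, the intergenic Itri9:101847468-101848578, had a fold of 5.52 with Neurod1 at 9.69-fold and H3K27ac at 6.70-fold. Of the 8 *Rxrg* peaks, 7 had a Neurod1 peak and 1 had H3K4me3, against 10.3% and 45.4% of the whole list. The Neurod1 share was 18.8% for all Otx2 peaks with H3K27ac and H3K4me1 but no H3K4me3. Only peaks on accessible elements listed for the gene were counted. The neighbours Itri9:101890530-101891315 and Itri9:101891851-101892055 had the same Neurod1 fold, 3.71, and may share a Neurod1 peak.

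Of photoreceptor and other retinal genes, only those in the part of a longer list that was at hand could be looked up. *Gnat2*, the cone transducin alpha subunit, had an Otx2 peak of 292 bp on a start-site element with a fold of 3.10, H3K27ac at 4.96-fold and Neurod1 at 3.74-fold, and without H3K4me3. *Isl2* and *Lhx1*, homeobox genes, had start-site peaks with folds of 2.45 and 2.06, both under H3K4me3 (12.4-fold and 15.4-fold) and neither with H3K27ac. No Otx2 peak lay on the listed start-site elements of *Arr3* (cone arrestin), *Guca1a* (a guanylate cyclase activator) or *Impg1* (a matrix proteoglycan of the outer retina). Among the listed start-site elements at hand, chosen here after their values were seen, the highest folds after *Ccni* were at *Cnst* (13.0), *Ap3m2*, a vesicle adaptor subunit (11.1), *Alg9*, a glycosyltransferase (10.4), and *Katnal1*, a relative of the microtubule-severing katanin (10.2), each under an H3K4me3 peak.

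The gap between neighbours was 32.0 kb at the median (quartiles 7.27 and 91.8 kb), and 10.3% of gaps were under 1 kb. Of all peaks, 13196 (47.1%, 46.6 to 47.7%) had another within 10 kb. With a −log10 q of 5 or more required, the median gap was 60.8 kb and 30.7% had another within 10 kb. In the whole list, the remaining 14797 stood alone, 7060 were in pairs and 279 were in 22 clusters of 10 or more. Weaker peaks lay closer to a neighbour: 52.7% of the lowest quintile by fold and 42.6% of the highest had another peak within 10 kb, and the median distance to the nearest was 8.39 and 14.4 kb. Clusters differed from single peaks in marks. H3K27ac was shared by 50.8% of single peaks and 72.8% of those in clusters of 10 or more, H3K4me1 by 68.4% and 82.1% and Neurod1 by 9.38% and 18.3%, while H3K4me3 was shared by 42.9% and 43.4%, and by 49.4% of peaks in pairs, 46.9% in clusters of 3 to 4 and 47.1% in clusters of 5 to 9. The median fold was 3.22 in single peaks and 3.01 in the clusters of 10 or more. These 22 clusters include that of 13 peaks on the short sequence Itri81, where 8 had Neurod1, 1 had H3K27ac and 1 had H3K4me1.

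The largest cluster held 21 peaks in 38.3 kb, at Itri1:175586252-175624598, and included an intergenic element listed for *Mef2c*, a MADS-box factor. The peak on that element, 2535 bp wide, had the highest fold of the cluster, 10.0, and the others ranged from 1.98 to 7.29. H3K4me3 overlapped 17 of the 21, H3K27ac 18 and H3K4me1 19, and none had a Neurod1 peak. A single H3K4me3 peak of 17884 bp and 122-fold and a single H3K27ac peak of 18808 bp lay across its middle, and that H3K27ac peak held 10 Otx2 peaks, the most of any H3K27ac peak. The H3K4me3 peak that overlapped the strongest Otx2 peak had a fold of 7.94. It ended at position 175620491, short of the Otx2 summit at 175620517.

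**Figure D4:**
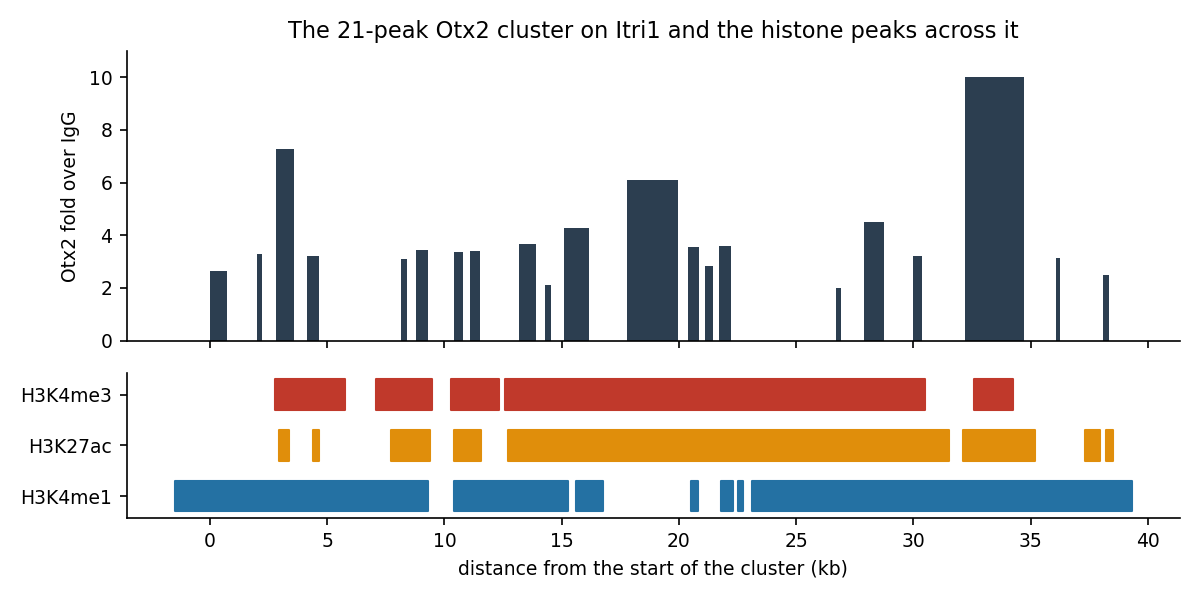
Top, the 21 Otx2 peaks of the largest cluster, each bar as wide as the peak and as high as its fold over IgG; bottom, the H3K4me3, H3K27ac and H3K4me1 peaks across it; the shared axis is distance from the start of the cluster (kb). The strongest Otx2 peak (10.0) starts 32.2 kb in, beyond the end of the 17884 bp H3K4me3 peak.

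The next clusters differed in how many of their peaks had H3K4me3 and Neurod1. Itri1:152842470-152920712 held 20 peaks in 78.2 kb, with a highest fold of 6.74. All 20 had H3K27ac, 8 had H3K4me3 and 5 had Neurod1, and the H3K27ac peaks there reached 19344 bp. Itri7:111568501-111605029 held 17 peaks in 36.5 kb with a highest fold of 6.10, all 17 with H3K4me1, 13 with H3K4me3, 13 with H3K27ac and none with Neurod1, much as in the largest cluster. The cluster of 16 peaks that followed, Itri3:32818078-32858269, had H3K4me3 at 14, H3K27ac at 16 and Neurod1 at none. A cluster of 15 peaks at Itri4:60768464-60829018, chosen, like the one before, after its values were seen, included a start-site element of *Neurod4*, a bHLH factor of retinal precursors. Its folds reached 12.9, and 13 of its peaks had H3K27ac, 7 had Neurod1 and 2 had H3K4me3.

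Otx2 peaks were found on 113 sequences, of which 19, Itri1 to Itri19, spanned over 10 Mb and held all but 201 peaks (0.718%). Density on these 19 was 11.3 peaks per Mb at the median. It was highest on Itri16, at 16.7 per Mb, where 57.0% of the peaks had H3K4me3, and lowest on Itri10, at 4.71 per Mb. Without Itri10 the range was 8.07 to 16.7. On Itri10, 71.7% (67.9 to 75.3%) of the 569 peaks had H3K4me3, against 31.4 to 57.0% on the other 18. The density of Otx2 peaks with H3K4me3 on Itri10, 3.38 per Mb, was inside the range of the others (3.07 to 9.51), whereas that of peaks without it, 1.33 per Mb, was below their range (4.77 to 7.85).

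The H3K27ac, H3K4me1 and Neurod1 lists were sparse on Itri10 as well. The H3K4me3 list was inside the range of the other sequences, with 5.14 peaks per Mb there and 4.25 to 15.7 elsewhere. H3K27ac had 8.91 peaks per Mb there and 25.8 to 58.8 elsewhere, H3K4me1 28.5 and 52.3 to 64.1, and Neurod1 0.273 and 0.854 to 3.34. The share of H3K4me3 peaks with an Otx2 peak was 60.1% on Itri10, inside the range of 44.3 to 67.8% on the others, and the median Otx2 fold was 3.29 there. *Atrx*, X-linked in mouse and human, has its listed start-site element on Itri10, with an Otx2 peak of fold 8.79 and an H3K4me3 fold of 48.9. The part of copy number or sequence in these densities was not tested.

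**Figure D5:**
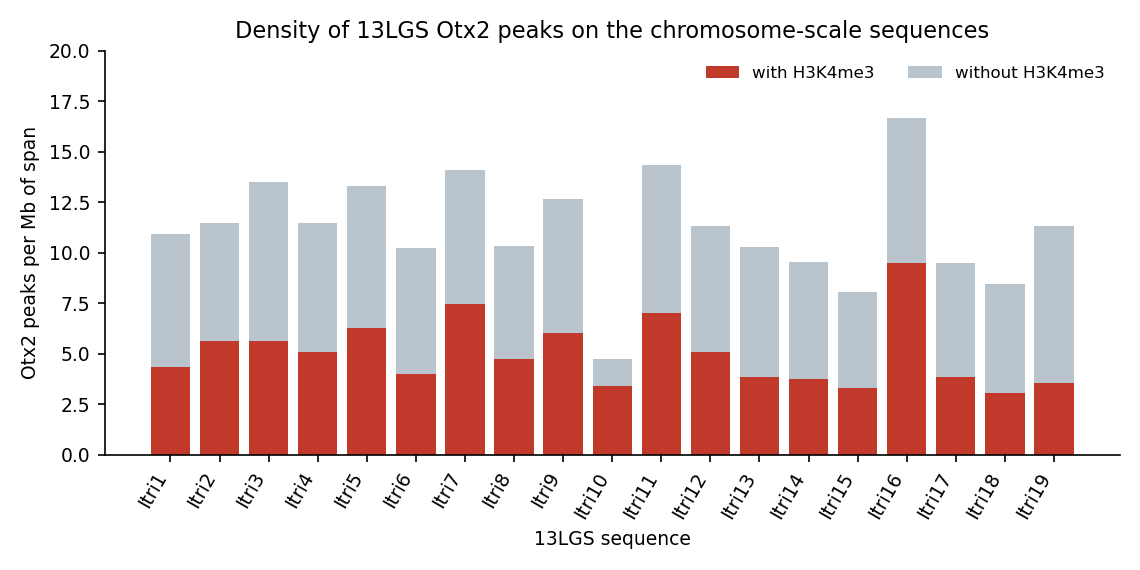
Otx2 peaks per Mb of span on the 19 largest 13LGS sequences, as stacked bars of peaks with and without H3K4me3; span is the end of the last peak of any 13LGS list. Itri10 has 1.33 peaks per Mb without H3K4me3, and the other sequences have 4.77 to 7.85.

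From the side of the histone lists, Otx2 reached most H3K4me3 peaks and a minority of the others. An Otx2 peak overlapped 62.9% (62.2 to 63.6%) of H3K4me3 peaks, 15.5% (15.3 to 15.7%) of H3K27ac peaks and 12.8% (12.6 to 13.0%) of H3K4me1 peaks. For H3K4me3 the share went from 33.4% in the lowest quintile by the fold of the mark to 84.0% in the highest. For H3K27ac it was 10.3, 8.01, 9.29, 14.5 and 35.4% through the quintiles. Histone peaks with Otx2 were also wider: 1452 against 656 bp at the median for H3K4me3 and 1007 against 415 bp for H3K27ac. Among Otx2 peaks that overlapped a mark, Otx2 fold was nearly unrelated to the highest fold of the overlapping histone peaks. Spearman's rho was 0.141 for H3K4me3, 0.0309 for H3K27ac and 0.0536 for H3K4me1. Each fold belongs to the summit of its own peak, not to the shared position. Otx2 peaks lacking H3K4me3 lay 56.3 kb from the nearest H3K4me3 peak at the median, and this distance was 44.3 kb in the lowest quintile by Otx2 fold and 74.6 kb in the highest.

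The P2 mouse Otx2 list is the closest counterpart, from another species and stage, with no sample-level test possible. The share of Otx2 peaks with H3K27ac was 55.0% in 13LGS and 36.2% in mouse, a difference of 18.9 points (18.0 to 19.7), and 13.3 points (12.5 to 14.1) with the same number of H3K27ac peaks taken from each species by q. H3K4me1 was lower in 13LGS by 6.98 points (71.9 against 78.9%). H3K4me3 was 45.4 and 43.3%, and the order turned with equal numbers of H3K4me3 peaks (40.9 and 43.3%). Among peaks with a fold of at least 10, H3K4me3 was shared by 62.0% of 229 in 13LGS and 37.9% of 754 in mouse, a difference of 24.1 points (16.7 to 31.0), and Neurod1 by 37.6% and 56.8%. The mouse Otx2 list pools 4 libraries of the Atlas antibody and 4 of the R&D Systems antibody, against 2 and 4 in 13LGS. The paper states that peaks in blacklisted regions and on mitochondrial reads were left out for mouse, and names no such step for 13LGS. Species, postnatal day, library number, antibody mix, this filter and IgG cannot be told apart in these differences.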

How the data were processed

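Nuclei of P5 13LGS and P2 mouse retina were profiled by CUT&RUN with paired-end sequencing. Per the labels, reads were processed with Trim Galore 0.6.4, cutadapt 3.5, Bowtie2, SAMtools 1.12 and MACS2. The authors called peaks jointly over the libraries of a target against IgG at a q-value of 0.05. The fold enrichment deposited by the authors is a linear ratio of pooled signal to IgG at the summit. The significance deposited by the authors is a −log10 q-value. Neither was rescaled.

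Peaks of different lists counted as overlapping if they had 1 bp or more in common. Overlaps, shares and medians were computed with Python 3.11.15, scipy 1.17.1, numpy 2.4.6 and pandas 2.3.3, with figures made in matplotlib 3.10.9. On simulated peaks the overlap calls matched those of bedtools 2.31.1, with 0 differences. Quintiles were equal counts of peaks ranked by fold. A gap was the start of a peak minus the end of the one before, and a cluster joined peaks within 10 kb. Peaks named were the 15 strongest, the strongest of each mark combination, the 5 widest, the 3 largest clusters and those on elements of *Mef2c*, *Rxrg* and *Thrb*, with exceptions stated. Members and lists were chosen with earlier results of these data known. Gene names came from the study's element lists, the longer of which was held in part and was used for no count. A 13LGS genome and annotation were not used here, so no sequence is shown. H3K27me3 and H3K9me3 were not analysed here.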

Additional observations from a re-analysis of the deposited data

How the results depend on the processing

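No paired analysis was possible because each list pools its libraries and no result came from a test, and for the same reason no replicate could be left out. Depth is unknown, and intervals cover counting error only. Differences below are the share in the highest minus the lowest quintile by fold, in percentage points, for H3K4me3, H3K27ac and H3K4me1 in that order. With 250 bp shared they were 27, 35.4 and 29.5, and 28.5% of Otx2 peaks lay outside every histone peak. That rule cannot be met by peaks narrower than 250 bp. With the Otx2 summit inside the mark, the last 2 were 15.3 and 0.725 and the share outside was 7.94%. With equal numbers of histone peaks they were 14.0 and 5.72, and 24.8%. Fixed fold limits (at least 6 against under 3) gave 18.7 for H3K4me3 and 24.9 for H3K27ac. A −log10 q of at least 5 gave −1.30 (−3.69 to 1.09), 17.5 and 15.9, a share outside of 5.56%, a median width of 591 bp, a median gap of 60.8 kb and 30.7% of peaks within 10 kb of another. The H3K4me3 difference between the end quintiles thus changed direction, with an interval that includes 0. The H3K4me3 share was 58.8% in the lowest quintile, 44.8% in the second and 57.5% in the highest, and the cause was not tested. Merging peaks within 500 bp gave 17.9 and 23.7 for the first 2, 460 bp, 36.7 kb and 40.0%. With chromosome-scale sequences only, the share outside was 6.34%.

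Alternatives chosen after seeing the data were as follows. Without peaks of fold under 2, the H3K4me1 difference was 5.32, the share outside 6.05% and the share within 10 kb 46.5%. Within width bands of 166 to 299, 300 to 499, 500 to 799 and 800 to 3431 bp, the H3K4me3 difference was −8.81, −6.15, −10.3 and −11.2, the H3K27ac difference 5.60, 8.64, 11.1 and 10.3, and the H3K4me1 difference 13.0 and 6.19 in the outer bands. Across all alternatives the H3K27ac and H3K4me1 differences stayed above 0, except that the interval of the H3K4me1 difference counted at the summit (−1.10 to 2.55) includes 0.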

Other observations

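A small set of Otx2 peaks combined a low fold with high significance. Of 655 peaks with a fold under 2, 29 had a −log10 q of at least 10, reaching 181. Of these 29, 89.7% had no histone peak and 58.6% had a Neurod1 peak, against 8.84% and 6.12% of the peaks with a fold of 2 to 3. On Itri12, 12 of them lay between 73894352 and 92408928, and 8 of those had Neurod1. On the short sequence Itri81, which spanned 30.5 kb, 13 Otx2 peaks of fold 1.25 to 1.76 and 9 Neurod1 peaks of fold 1.37 to 1.62 were listed, with 2 H3K27ac peaks (fold 1.74 to 2.25), 2 H3K4me1 peaks (1.72 to 4.88) and no H3K4me3 peak.

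The 201 Otx2 peaks on the 94 smaller sequences had a median fold of 2.43, 52.2% had no histone peak and 19.9% had a Neurod1 peak.

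The H3K4me3 peak with most Otx2 peaks held 11 of them, at Itri3:32824730-32849694, was 24965 bp wide and had a fold of 66.7. The H3K4me1 peak with most, at Itri3:36599893-36665234, was 65342 bp wide and held 15. Both were chosen after their values were seen.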
